A study of Mus musculus with 24 samples.

Results

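DNA methylation was compared between 3 vehicle-exposed mice with low Fggy RNA in epididymal fat and 3 vehicle-exposed mice with high Fggy RNA, at 1000 windows of 100 bp. These 6 MBD libraries are part of 12 MBD libraries in the series, the remaining 6 coming from mice exposed to bisphenol A (BPA) before birth. The animals were chosen by their Fggy RNA: the header of the authors' RNA table marks vehicle animals 2, 3 and 5 as low and vehicle animals 1, 4 and 6 as high. All animals were males of the outbred CD-1 stock, and fat was collected at 19 weeks of age after a chow with 4% fat. Dams of both vehicle sets were given corn oil by mouth on gestational days 9 to 18, and dams of the BPA group received 500 ug/kg/day over the same days. Whether any of these mice shared a litter is not in the labels, so p-values measure the spread between these animals only.

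Methylation of cytosine in CpG dinucleotides is a heritable mark that is dense over most of the mammalian genome and mostly absent from CpG-rich promoters of active genes. In MBD-seq, sheared DNA is bound by recombinant MBD2, a protein whose domain recognises methylated CpG, so that a region is recovered according to how many of its CpGs are methylated and how many CpGs it holds. The deposited value is a score between 0 and 1 per window and library, given with 2 decimals. How the authors picked the 1000 windows is not known here, and if they were picked on values of these animals, the p-values and counts below are not independent of that choice. Fggy encodes a carbohydrate kinase of the FGGY family. The comparison asks whether vehicle mice that differ in Fggy RNA also differ in these scores.

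The RNA of the same animals showed the split on which the sets rest. Fggy stood at 162.3, 195.6 and 153.5 (normalised read value, as deposited) in low-Fggy animals 2, 3 and 5, against 648.6, 605.5 and 591.4 in high-Fggy animals 1, 4 and 6. The highest low-Fggy value (195.6) and the lowest high-Fggy value (591.4) lie on either side of a wide gap. Because these values defined the sets, no test was applied to them.

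By library, the windows gave no separation. The mean score over all windows was 0.474, 0.449 and 0.464 in low-Fggy animals 2, 3 and 5, against 0.489, 0.415 and 0.449 in high-Fggy animals 1, 4 and 6. The group means were 0.462 ± 0.0127 in low-Fggy fat and 0.451 ± 0.0371 in high-Fggy fat (SD, n = 3 each), and the values overlapped (exact permutation test, two-sided p = 0.8, where 3 against 3 cannot go below 0.1). The high-Fggy animals held both the highest and the lowest of the 6 library means. Without high-Fggy animal 4 the difference of 0.0111 became -0.0071, with the opposite sign.

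The number of windows with a score of exactly 0 showed the same layout. It was 157, 166 and 168 of 1000 in low-Fggy animals 2, 3 and 5, against 130, 222 and 184 in high-Fggy animals 1, 4 and 6. The means were 163.7 ± 5.86 windows in low-Fggy fat and 178.7 ± 46.2 in high-Fggy fat (SD, n = 3 each; exact permutation test, two-sided p = 0.7). The low-Fggy libraries lay inside the range of the high-Fggy libraries, and without high-Fggy animal 4 the difference of -15.0 windows became 6.67. Over windows above 0 the mean score was 0.552 ± 0.0128 in low-Fggy fat and 0.548 ± 0.0146 in high-Fggy fat (SD, n = 3 each; exact permutation test, two-sided p = 0.6).

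**Figure D1:**
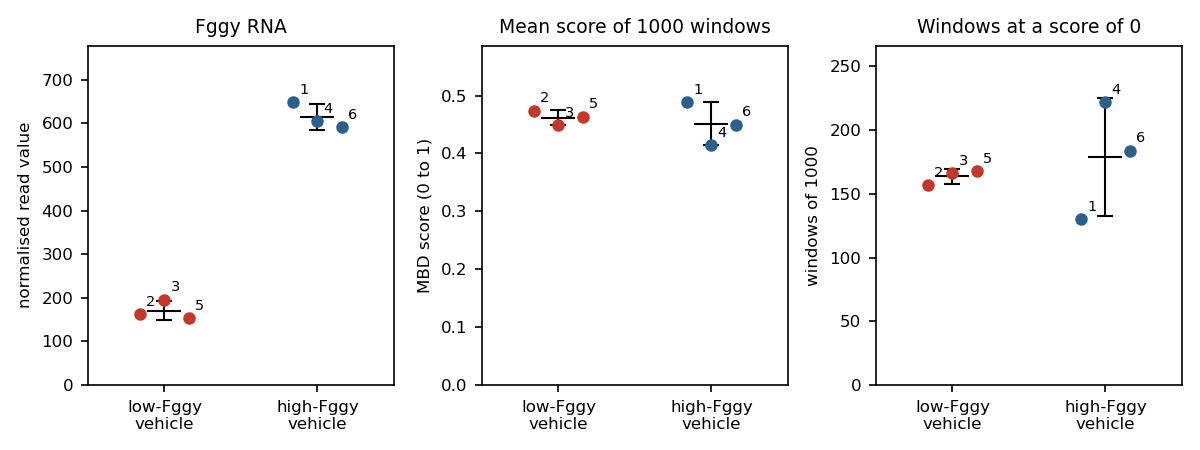
Fggy RNA (normalised read value), mean MBD score over 1000 windows and number of windows at a score of 0 in low-Fggy (red) and high-Fggy (blue) vehicle animals, each point being 1 animal labelled with its number, with the group mean and SD as bars. The sets are far apart in Fggy RNA (153.5 to 195.6 against 591.4 to 648.6) and overlap in both methylation measures.

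Pairs of libraries within a set and between sets covered overlapping ranges of likeness. Across the 1000 windows, the mean absolute difference in score was 0.134 to 0.144 for the 3 pairs within the low-Fggy set and 0.136 to 0.151 for the 3 pairs within the high-Fggy set, while the 9 pairs between sets ranged from 0.129 to 0.153. Pearson's r across windows, which all libraries share along with their CpG content, was 0.53 to 0.58 within the low-Fggy set, 0.55 to 0.57 within the high-Fggy set and 0.54 to 0.60 between sets. The windows at 0 in only one library of a pair numbered up to 210 within the low-Fggy set, up to 232 within the high-Fggy set and up to 232 between sets.

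Window by window, no position passed the test. Limma on the score called 0 of 1000 windows higher and 0 lower in low-Fggy fat (0% of windows in either direction, Benjamini-Hochberg adjustment). No adjusted p lay below 0.326. For 32 windows (3.2% of all windows) the unadjusted limma p was under 0.05, 19 of them higher and 13 lower in low-Fggy fat. The difference of group means, low-Fggy minus high-Fggy, had a median of 0.01, with an interquartile range of -0.033 to 0.053 and extremes of -0.513 and 0.483. The mean was higher in low-Fggy fat at 552 windows, lower at 396 and equal at 52.

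The width of the interval for a difference varied with the level of the window. These intervals are per window and not adjusted for the number of windows. A difference beyond the half-width therefore need not pass the adjusted test, and none did. The half-width of the 95% interval for the difference was 0.170 for the median window. Among the 267 windows with a mean of at least 0.6 it was 0.0732, and the median absolute difference there was 0.0233, with group means of 0.687 in low-Fggy fat and 0.677 in high-Fggy fat. Among the 344 windows with a mean between 0.4 and 0.6 the half-width was 0.141 and the group means were 0.506 and 0.498 in low-Fggy and high-Fggy fat. In the 297 windows with a mean between 0.2 and 0.4 the half-width was 0.427, beside a median SD within a set of 0.232, and in the 92 windows below 0.2 it was 0.334. The spread between animals was narrowest at the windows of highest score. The depth behind each score is unknown.

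In 56 windows the 3 low-Fggy values and the 3 high-Fggy values did not overlap. The low-Fggy values were higher in 32 of these (3.2% of all windows) and lower in 24 (2.4%), a split of 57.1% higher. Full separation of 3 against 3 gives a single window an exact two-sided permutation p of 0.1 at the lowest, so it does not by itself mark a window as different. With quantile normalisation the split was 38 higher and 44 lower (46.3% higher), and with each library centred on its mean score it was 39 higher and 56 lower (41.1% higher), so the majority direction differed between scalings. Without high-Fggy animal 4 it also turned, at 48 windows higher and 77 lower. The windows fell into 3 kinds. In 8 windows one set was at 0 in every animal and the other above 0 in every animal. In 16 windows some animals of the lower set were at 0, with differences of 0.2 to 0.413. In the remaining 32 windows all 6 animals scored above 0, with differences of 0.0300 to 0.183 and a median of 0.0750. In 16 of the 56 windows the sets were apart by only 0.01, the rounding step of the deposited values, and 34 were apart by more than 0.02.

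**Figure D2:**
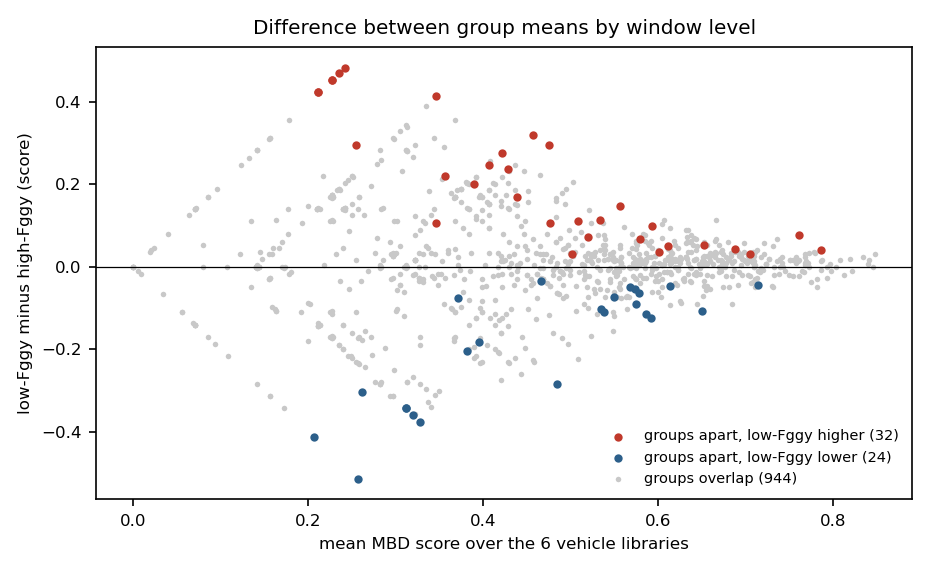
Difference in score (low-Fggy minus high-Fggy group mean) against the mean score over the 6 vehicle libraries, each point being 1 of 1000 windows. Windows whose sets do not overlap are coloured red (32, low-Fggy higher) or blue (24, low-Fggy lower), and the spread of differences narrows toward high scores.

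The 8 windows at 0 in every animal of one set and above 0 in every animal of the other held the smallest limma p-values. At chr10:16503401-16503500 (mm9, as are all positions here) the score was 0.42, 0.42 and 0.43 in low-Fggy animals 2, 3 and 5, against 0 in all 3 high-Fggy animals, a difference of 0.423 (95% interval 0.231 to 0.616, limma adjusted p = 0.326). The 3 values 0.42, 0.42 and 0.43 against zeros recurred at chr15:36541901-36542000, with the same difference. At chr15:74669801-74669900 the low-Fggy animals scored 0.51, 0.42 and 0.43, against 0 in the high-Fggy animals, a difference of 0.453 (0.240 to 0.667). These windows scored above 0 in one set and 0 in the other, with many of the scores near the most common value above 0 in these libraries.

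Of the same kind was chr15:23167701-23167800, with 0.42, 0.42 and 0.52 in low-Fggy animals 2, 3 and 5 and 0 in each high-Fggy animal, a difference of 0.453 (0.237 to 0.669). At chr9:82747901-82748000 the low-Fggy scores were 0.56, 0.42 and 0.43, against 0 in the high-Fggy animals (difference 0.470, 0.240 to 0.700). At chr17:77334801-77334900 they were 0.42, 0.60 and 0.43, against 0 in the high-Fggy animals, a difference of 0.483 (0.237 to 0.729, limma adjusted p = 0.346). This was the widest difference in favour of the low-Fggy set among the 1000 windows.

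The opposite layout, with the low-Fggy set at 0, was found at 2 windows. At chr15:43292101-43292200 all 3 low-Fggy animals were at 0, against 0.51, 0.51 and 0.52 in high-Fggy animals 1, 4 and 6, a difference of -0.513 (-0.743 to -0.284, limma adjusted p = 0.326). At chr1:103911601-103911700 the low-Fggy animals were at 0, against 0.41, 0.41 and 0.42 in the high-Fggy animals, a difference of -0.413 (-0.601 to -0.226). Within each set the 3 animals differed by at most 0.01 at both positions.

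The status of these 8 windows depended on how the spread was modelled. Limma without a variance trend, which shrinks all windows toward a common spread, called these same 8 windows (0.8% of 1000) at adjusted p between 0.0023 and 0.035, whereas every other alternative gave each of them an adjusted p between 0.111 and 1.0. Of the 24 values above 0 in these windows, 17 lay between 0.41 and 0.43. In the BPA animals, 2 to 4 of the 6 libraries were at 0 at each of these windows, so animals at 0 and animals above 0 occurred within that group as well.

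Zeros were common in both sets. Of the 1000 windows, 555 scored above 0 in all 6 animals and 6 were at 0 in all 6. More low-Fggy than high-Fggy animals were at 0 in 151 windows, fewer in 186, and the same number in 108, the 6 windows at 0 throughout among them. A window at 0 in 1 low-Fggy animal alone occurred 62 times, and one at 0 in 1 high-Fggy animal alone 89 times. Zeros in all of one set and none of the other occurred at 2 windows for the low-Fggy set and at 6 for the high-Fggy set. Zeros in 3 animals were more often divided between the sets. There were 46 windows with 1 low-Fggy and 2 high-Fggy animals at 0, and 43 with 2 low-Fggy and 1 high-Fggy.

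**Figure D3:**
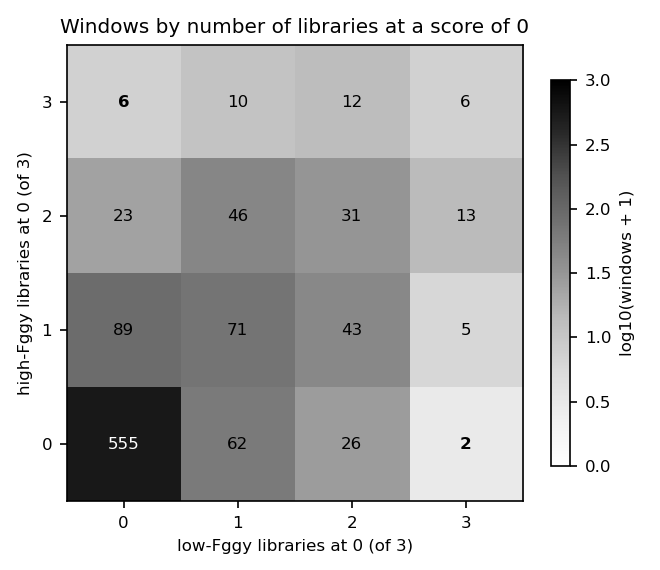
Number of windows by how many of the 3 low-Fggy libraries (horizontal axis) and of the 3 high-Fggy libraries (vertical axis) scored 0, shaded by log10(windows + 1). The bold corner cells hold the windows at 0 in every animal of one set and above 0 in every animal of the other: 2 with the low-Fggy set at 0 and 6 with the high-Fggy set at 0.

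Among windows above 0 in every vehicle animal, the differences were smaller and graded. At chr13:68125301-68125400 the low-Fggy animals 2, 3 and 5 scored 0.61, 0.57 and 0.59, against 0.50, 0.46 and 0.47 in high-Fggy animals 1, 4 and 6, a difference of 0.113 (0.0418 to 0.185, limma adjusted p = 0.789). At chr11:23365301-23365400, a position of high score, the scores were 0.78, 0.81 and 0.81 in low-Fggy fat against 0.73, 0.70 and 0.74 in high-Fggy fat, a difference of 0.077 (0.0255 to 0.128). The sets did not overlap at either window, and neither window passed the test.

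Lower in low-Fggy fat was chr17:15965101-15965200, with 0.60, 0.56 and 0.63 in animals 2, 3 and 5 against 0.73, 0.69 and 0.69 in high-Fggy animals 1, 4 and 6, a difference of -0.107 (-0.168 to -0.0459, limma adjusted p = 0.539). At chr12:4135201-4135300 the scores were 0.56, 0.51 and 0.52 in low-Fggy fat against 0.63, 0.63 and 0.60 in high-Fggy fat (difference -0.0900). At chr8:40136701-40136800 they were 0.51, 0.56 and 0.52 in low-Fggy fat against 0.70, 0.63 and 0.60 in high-Fggy fat (difference -0.113). In these 3 windows the sets were apart by 0.04 to 0.06.

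The last named windows in this direction were looser. At chr10:77522101-77522200 the low-Fggy scores of 0.42, 0.56 and 0.43 and the high-Fggy scores of 0.69, 0.56 and 0.63 met at 0.56, with a difference of -0.157. At chr12:39658601-39658700 the scores were 0.42, 0.51 and 0.52 in low-Fggy fat against 0.56, 0.60 and 0.60 in high-Fggy fat (difference -0.103), and at chr6:148974201-148974300 they were 0.51, 0.51 and 0.43 against 0.56, 0.56 and 0.66 (difference -0.110). Adjusted p by limma was 0.871 to 0.920 for chr12:4135201-4135300, chr8:40136701-40136800 and these 3 windows. A large difference of means did not by itself separate the sets: of 119 windows that differed by more than 0.2, 23 had sets that did not overlap and 96 had sets that did.

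**Figure D4:**
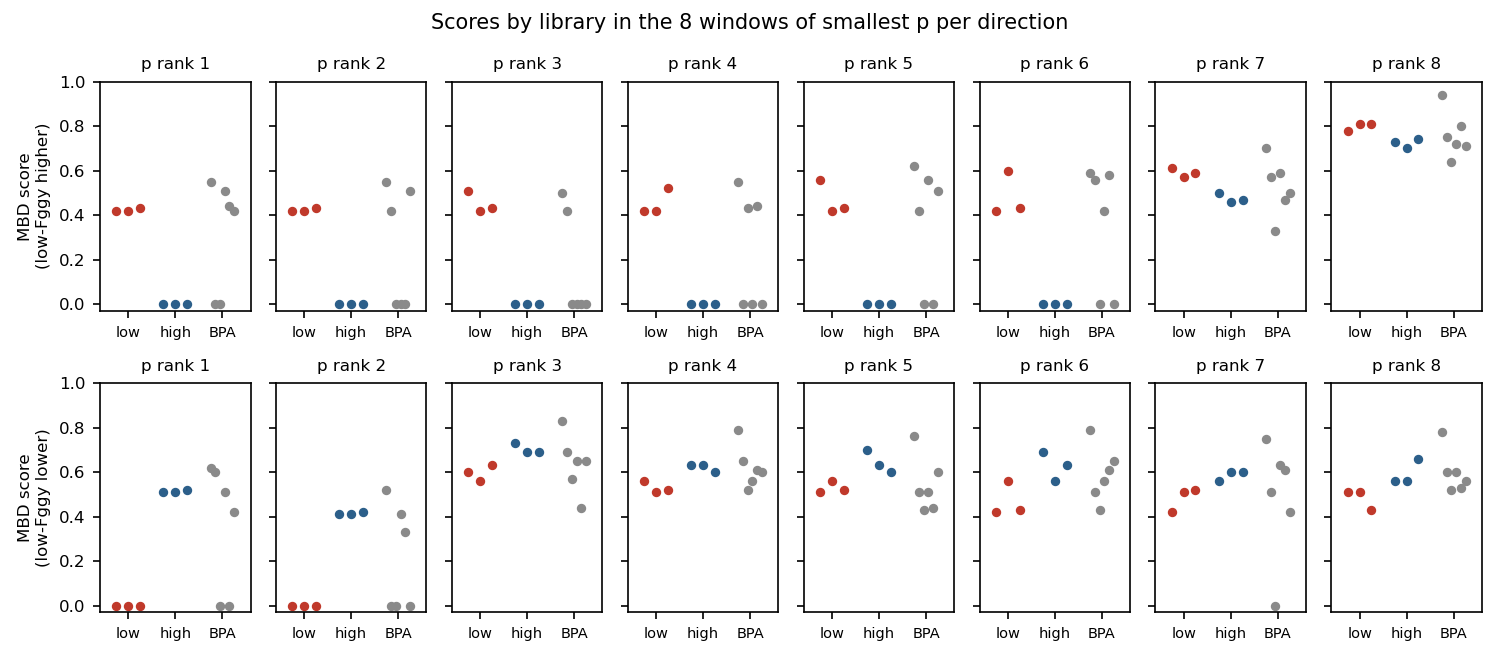
MBD score in each low-Fggy vehicle, high-Fggy vehicle and BPA library at the 8 windows of smallest limma p with higher (top) and lower (bottom) scores in low-Fggy fat, in the order in which the text gives them, each point being 1 library. At 6 windows of the top row the high-Fggy set is at 0, and at 2 windows of the bottom row the low-Fggy set is at 0. At each window with a set at 0, some BPA libraries lie at 0 and others above 0.

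Chromosome 4, which carries Fggy in the RefSeq gene table of GRCm38, held 64 of the windows. In 3 of them the low-Fggy values were all higher and in 1 all lower, and the median difference was 0. The smallest p there belonged to chr4:71779101-71779200, with 0.42, 0.56 and 0.61 in low-Fggy animals 2, 3 and 5 against 0.42, 0 and 0 in high-Fggy animals 1, 4 and 6 (difference 0.390, 95% interval 0.0129 to 0.767, limma adjusted p = 0.920). Next came chr4:57506601-57506700, with 0.69, 0.72 and 0.76 in low-Fggy fat against 0.51, 0.63 and 0.69 in high-Fggy fat (difference 0.113), and chr4:137445701-137445800, with 0.55, 0.54 and 0.58 against 0.47, 0.49 and 0.49 (difference 0.073). Only the last of these 3 separated the sets.

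The windows of chromosome 4 ran from 4400001 to 152963800, and the longest stretch without one lay between 87617400 and 103286701. Windows were not placed in genes, exons or promoters, for want of an annotation of the mm9 build, and whether any lies in Fggy was not examined. The only pair of windows whose starts lay within 500 bases of each other was on chromosome 14 and held no window named here, so no named window had a neighbour to set beside it.

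By chromosome, the mean difference ranged from -0.0231 on chromosome 12 to 0.0358 on chromosome 15 and was above 0 on 16 of 20 chromosomes. These means come from the same 6 libraries and carry their overall difference of 0.0111, so the 20 chromosomes are not separate observations. On chromosome 9 (48 windows) the library means were 0.538, 0.515 and 0.518 in low-Fggy animals 2, 3 and 5 against 0.509, 0.495 and 0.490 in high-Fggy animals 1, 4 and 6, with no overlap. No other of the 20 chromosomes had library means without overlap. With libraries centred on their overall means the sets overlapped on chromosome 9, and those of chromosome 12 did not overlap, lower in low-Fggy fat. The 51 windows of the X chromosome averaged 0.373 in low-Fggy fat and 0.364 in high-Fggy fat, below the windows of the other chromosomes (0.467 in low-Fggy fat and 0.456 in high-Fggy fat).

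The BPA animals were set beside the 56 windows whose vehicle sets did not overlap. The range of their 6 values reached both vehicle sets in 54 of the windows. BPA libraries 1 and 3 stood apart in overall level, with mean scores of 0.697 and 0.332 against 0.429 to 0.477 in the other BPA libraries, and without these 2 libraries the range reached both vehicle sets in 43 windows. Where low-Fggy fat was higher, the BPA median lay nearer the low-Fggy mean in 20 windows and nearer the high-Fggy mean in 12, and where it was lower the numbers were 10 and 13, with 1 tie.

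RNA of the DNA methylation machinery was read in the same animals, as values without a test, since the sets were made from RNA. Of 26 listed genes 25 were found and 23 reached a normalised value of 10 in at least one vehicle library. The sets did not overlap for 1 of these genes, against 3.31% of 13869 genes with low-Fggy values all higher and 3.4% with low-Fggy values all lower. This was Uhrf2, which encodes a ubiquitin ligase related to the maintenance methylation factor Uhrf1, at 508.2, 531.8 and 515.8 in low-Fggy animals 2, 3 and 5 against 625.5, 645.5 and 740.2 in high-Fggy animals 1, 4 and 6. Of the genes chosen for their role, the maintenance methyltransferase Dnmt1 stood at 373.3, 641.1 and 367.5 in low-Fggy fat against 392.8, 316.8 and 424.9 in high-Fggy fat. The de novo methyltransferase Dnmt3a was at 1137, 1308 and 1183 in low-Fggy fat against 1055, 1269 and 891.9 in high-Fggy fat, and the 5-methylcytosine dioxygenase Tet2 at 1381, 1046 and 1123 against 1250, 883.2 and 1557. For Dnmt1, Dnmt3a and Tet2 the sets overlapped.

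Cell type markers showed what tissue the libraries held. Fat cell markers were abundant in all 6, with the adiponectin gene Adipoq at 32230, 31270 and 36000 in low-Fggy fat against 35720, 39980 and 22610 in high-Fggy fat. Summed endothelial markers were 6620 to 7357 in low-Fggy fat against 5305 to 5799 in high-Fggy fat, and the sets did not overlap for Pecam1, Cdh5 and Tek, 3 of the 4 members, all higher in low-Fggy fat, against 3.31% of all genes in that direction. Pecam1 stood at 2170, 2161 and 2390 in low-Fggy fat against 1504, 1878 and 1547 in high-Fggy fat. The other member, Vwf, overlapped, at 467.9, 490.2 and 642.6 in low-Fggy fat against 595.3, 464.0 and 541.4 in high-Fggy fat. Summed lymphocyte markers were 104.2 to 172.2 in low-Fggy fat against 59.0 to 73.4 in high-Fggy fat, with 1 of 5 members, the gene Cd3e of the T cell receptor complex, not overlapping (higher in low-Fggy fat, the direction of 3.31% of all genes). In bulk tissue fewer cells of a type and less RNA per cell cannot be told apart, and the part of cell make-up in the methylation scores was not tested.

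Markers of other tissue differed between single animals. Summed epididymal epithelium markers were 10.4 to 24.3 in the low-Fggy animals, against 16.1, 590.0 and 4700 in high-Fggy animals 1, 4 and 6. Of the 6 epididymal genes Adam7 and Crisp1 made up nearly all of the sums in high-Fggy animals 4 and 6. The genes Lcn5, Lcn8 and Defb15 were the 3 under 1 in every library, with Defb15 at 0 throughout. Rnase10 lay between 0.83 and 7.04. Duct and tubule markers summed to 190.0 to 1551 in the low-Fggy animals, against 741.4, 240.9 and 8554 in high-Fggy animals 1, 4 and 6. Macrophage markers summed to 25930 in low-Fggy animal 3, with 9758 and 11640 in the other low-Fggy animals and 8746 to 11760 in the high-Fggy animals. Summed motile cilia markers were 366.2 to 593.3 in low-Fggy fat against 335.0 to 1852 in high-Fggy fat, and testis germ cell markers 24.8 to 66.02 against 40.3 to 104.9. Of the cilia genes Tppp3 varied little, at 257.9 to 367.6. The others varied more, Dnah5 being 174.1, 5.19 and 104.1 in low-Fggy fat against 23.2, 6.35 and 858.0 in high-Fggy fat. Among the 6 testis genes the sets did not overlap for 1, Gapdhs (14.3, 23.2 and 26.0 against 37.3, 26.5 and 51.0), lower in low-Fggy fat as were 3.4% of all genes. Mesothelium markers summed to 726.4 to 1416 in low-Fggy fat against 647.8 to 2404 in high-Fggy fat, and the 2 erythroid markers found to 522.4 to 757.8 against 271.1 to 754.4. These sums overlapped between the sets. The part of these tissues in the scores was not tested.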

How the data were processed

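MBD-seq and RNA-seq libraries were made from the same epididymal fat with SOLiD kits, per the labels' protocols. Per the submitters' processing notes, mm9 was the genome build and edgeR was among the tools. How reads were aligned, how windows were picked, how deeply they were covered and what the score measures was not given in the sources used here. MBD values are the authors' deposited score per window, and the RNA values their normalised signal per gene; sequencing depth is unknown for both, so no interval for counting error is given. Low-Fggy minus high-Fggy differences were computed with limma 3.58.1 (R 4.3.3) on the score without a logarithm, in the 6 vehicle libraries, with a variance trend, two-sided p-values and Benjamini-Hochberg adjustment at 0.05 over all 1000 windows, and the script was tested on simulated data. Library values were compared by exact permutation (scipy 1.17.1). Named windows are the 8 of smallest p in each direction, since none passed, and the 3 of smallest p on the chromosome of Fggy. The sets, lists and rules were chosen with earlier results of these data known. Marker lists covered white adipocyte, duct and tubule epithelium, epididymal epithelium, motile cilia, testis germ cell, macrophage, mesothelium, lymphocyte, erythroid and endothelium. Alternatives covered the model, scale, filters, normalisation, shared spread and single animals left out.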

Additional observations from a re-analysis of the deposited data

Results flagged for a closer look

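At chr6:148974201-148974300 the score of BPA animal 1 was 0.78, while the other 5 BPA animals lay between 0.52 and 0.60, a gap of 0.692 of the whole range against a limit of 0.625 for 6 samples. The low-Fggy animals scored 0.51, 0.51 and 0.43 there and the high-Fggy animals 0.56, 0.56 and 0.66. This was 1 of 21 sets of BPA values examined, and chance gives about 1 in 20 for independent sets. The sets examined hold the same 6 BPA animals and are not independent. BPA animal 1 also had the highest library mean of the 12 MBD libraries (0.697). Sets of 3 were too small to be examined in this way.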

How the results depend on the processing

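Limma called 0 windows under 16 of the 17 alternatives, fits without 1 animal included, and 8 without a variance trend; an unadjusted p under 0.05 was found for 23 to 57 windows. The number of windows with sets that do not overlap was 95 with libraries centred on their means, 34 when a gap of more than 0.02 was asked for (chosen after seeing the data), and 110 to 145 with 1 animal left out, since 2 animals against 3 separate more easily. The difference in library mean ranged from -0.0071 (without high-Fggy animal 4) to 0.0300 (without high-Fggy animal 1), and that in windows at 0 from -39.3 (without high-Fggy animal 1) to 6.67 (without high-Fggy animal 4). Over 304 recomputed values of the 19 named windows, 296 kept direction and side of the threshold, 8 passed it (all without a variance trend) and 0 changed sign. The named windows were picked by p in these same data, so this is not an independent check. Settings that alter only the spread model or the windows tested leave the difference itself unchanged. Leaving out 1 animal cannot reverse the sign where the sets do not overlap. No paired analysis was possible because the labels give no pairing of low-Fggy with high-Fggy animals. The fit in which all 12 libraries share a spread includes BPA animals 1 and 3; without them (chosen after seeing the data) 0 windows were called. Depth is unknown, so what a score of 0 allows cannot be given. How many reads separate a score of 0 from the most common values above 0, 0.42 and 0.43, is unknown too. A step from 0 to 0.42 therefore cannot be read as an amount of methylation.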

Other observations

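Of the 8 windows at 0 throughout one set and above 0 throughout the other, 4 lay on chromosome 15, which holds 51 of the 1000 windows: 3 with higher and 1 with lower scores in low-Fggy fat. The other 4 lay on chromosomes 1, 9, 10 and 17. This grouping was noticed after the values were seen and was not tested.

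The score took few values. Each vehicle library held 54 to 59 distinct values over 1000 windows. The most common value above 0 was 0.42 or 0.43 in all 6 vehicle libraries, at 131 to 140 windows per library, followed by 0.51 or 0.52 at 83 to 109 windows. Only 42 to 56 windows per library scored above 0 and under 0.4.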
